A study of Mus musculus with 7 samples.

Results

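Cytochrome P450 families 1 to 4 hold the membrane-bound haem enzymes that oxidise drugs, dietary and environmental compounds, steroids, retinoids and fatty acids. Each enzyme takes its electrons from a reductase in the endoplasmic reticulum and uses them to place 1 atom of molecular oxygen on its substrate. Families 1 to 3 act mainly on foreign compounds and steroids and family 4 mainly on fatty acids and their derivatives. Most members are made at high level by hepatocytes, the main cells of the liver, while a few are known from epithelia, mesenchyme, leukocytes or skin. The members were the protein-coding mouse genes whose symbols begin with Cyp1, Cyp2, Cyp3 or Cyp4 and a subfamily letter, matched to array probes through their RefSeq accessions. RefSeq lists 80 such genes, beside 34 pseudogene or non-coding entries that were left out. A probe matched 75 of the 80, which are 75 of the 21154 genes named on the array. The other 5 (Cyp2a5, Cyp2c40, Cyp2c69, Cyp2j12 and Cyp3a41a) had no matched probe.

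The study compared cells that its labels call dermal sheath cells, the mesenchymal layer around the hair follicle, with and without activation of β-catenin, which carries Wnt signals to the nucleus. Cells positive for a YFP reporter and negative for CD34, ALP and ITGα8 were sorted from the dorsal skin of mice at postnatal day 15. The control group had 3 arrays from 4 mice, with 2 mice pooled on array 3. The activation group, labelled cΔex3, had 4 arrays from 6 mice, with 2 mice pooled on array 2 and 2 on array 3. Strain, the driver of recombination and the cells in which it acts were not given in the sources used here.

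Levels are the log2 of the processed signal relative to each array's 75th percentile, so that 0 is that percentile, and differences are cΔex3 minus control, where a difference of 1 is a 2-fold change. That percentile was between 756 and 907 signal units on the control arrays and between 1348 and 2160 on the cΔex3 arrays. Values are given in the order of the array numbers. Levels of different genes come from different probes and are not compared. Markers of several other cell types moved with the groups. All 20 hepatocyte markers were lower on the cΔex3 arrays (limma; 20 at an unadjusted p under 0.05 and 0 higher), with a median difference of −9.08. Their summed level, the log2 of their summed signals relative to the same percentile, lay between 12.6 and 13.0 on the control arrays and between 3.71 and 5.50 on the cΔex3 arrays, and all 20 were above background on every control array. Albumin (Alb) read 9.75, 9.92 and 9.54 on the control arrays and −0.76, 2.30, 1.79 and 2.44 on the cΔex3 arrays. By contrast 12 of 12 adipocyte markers, 10 of 10 fibroblast markers and 7 of 8 markers of dermal sheath and smooth muscle were higher on the cΔex3 arrays, with medians of 5.84, 3.59 and 4.10 (3.32 with Lmod1 at its bound). The sheath marker that was not higher, Itga8, differed by −0.77 and did not pass the threshold. Its product ITGα8 is one that the sorted cells were chosen to lack, as given above. Adiponectin (Adipoq) read −4.52, −1.95 and −5.12 on the control arrays and 7.68, 8.08, 7.96 and 6.53 on the cΔex3 arrays. Smooth muscle actin (Acta2), a defining gene of the dermal sheath, read −0.69, 0.59 and −0.53 on the control arrays and 5.36, 4.77, 4.55 and 5.29 on the cΔex3 arrays, and Lmod1 of the same list was on no control array above background. The summed level of the adipocyte markers ran from 4.29 to 6.72 on the control arrays and from 9.95 to 11.1 on the cΔex3 arrays, and that of the sheath markers from 4.54 to 5.10 and from 6.58 to 7.72. Epididymis markers were uneven within the cΔex3 group, where their summed level ran from 0.71 on array 1 to 9.70 on array 4, against 1.74 to 2.19 on the control arrays. Of the endothelial markers 6 of 8 were higher and 1 lower, of the lung epithelium markers 5 of 7 lower and 1 higher, and of the kidney tubule markers 5 of 8 lower and 1 higher. Of 7 tested keratinocyte markers 1 was higher, 1 lower and 5 not past the threshold. Enterocyte markers were lower in 3 of 7 tested cases, and 4 did not pass. The summed level of the lung markers was between 3.87 and 4.07 on the control arrays and between 2.48 and 3.20 on the cΔex3 arrays, that of the endothelial markers between 5.80 and 5.95 and between 5.79 and 7.05, and that of the kidney markers between 1.29 and 1.62 and between 1.04 and 2.93. How much of each member's difference goes with these cell types was not tested, and in bulk samples fewer cells of a type and less RNA per cell cannot be told apart.

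The P450 genes fell almost as a block on the cΔex3 arrays. Of the 72 members tested, 58 were lower, 4 were higher and 10 did not pass the threshold (limma, adjusted p under 0.05 over 18031 genes). Among all genes tested, 29% were lower and 24% higher. The median difference of the tested members was −6.78 against −0.08 over all genes, and their differences ran from −10.63 to 5.07. Falls of at least 8 on the log2 scale made up 41.7% of the members and 1.24% of all genes tested. The control and cΔex3 arrays did not overlap for 59 members that read lower and 4 that read higher, against 32.6% and 26.1% of all genes tested. Without cΔex3 array 4, 8 members were higher, the same 4 together with Cyp2ab1, Cyp2j9, Cyp4b1 and Cyp4f16. By family, 36 of 43 tested members of family 2, 8 of 8 of family 3 and 13 of 18 of family 4 were lower, while family 1 was split into 1 lower and 2 higher.

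**Figure D1:**
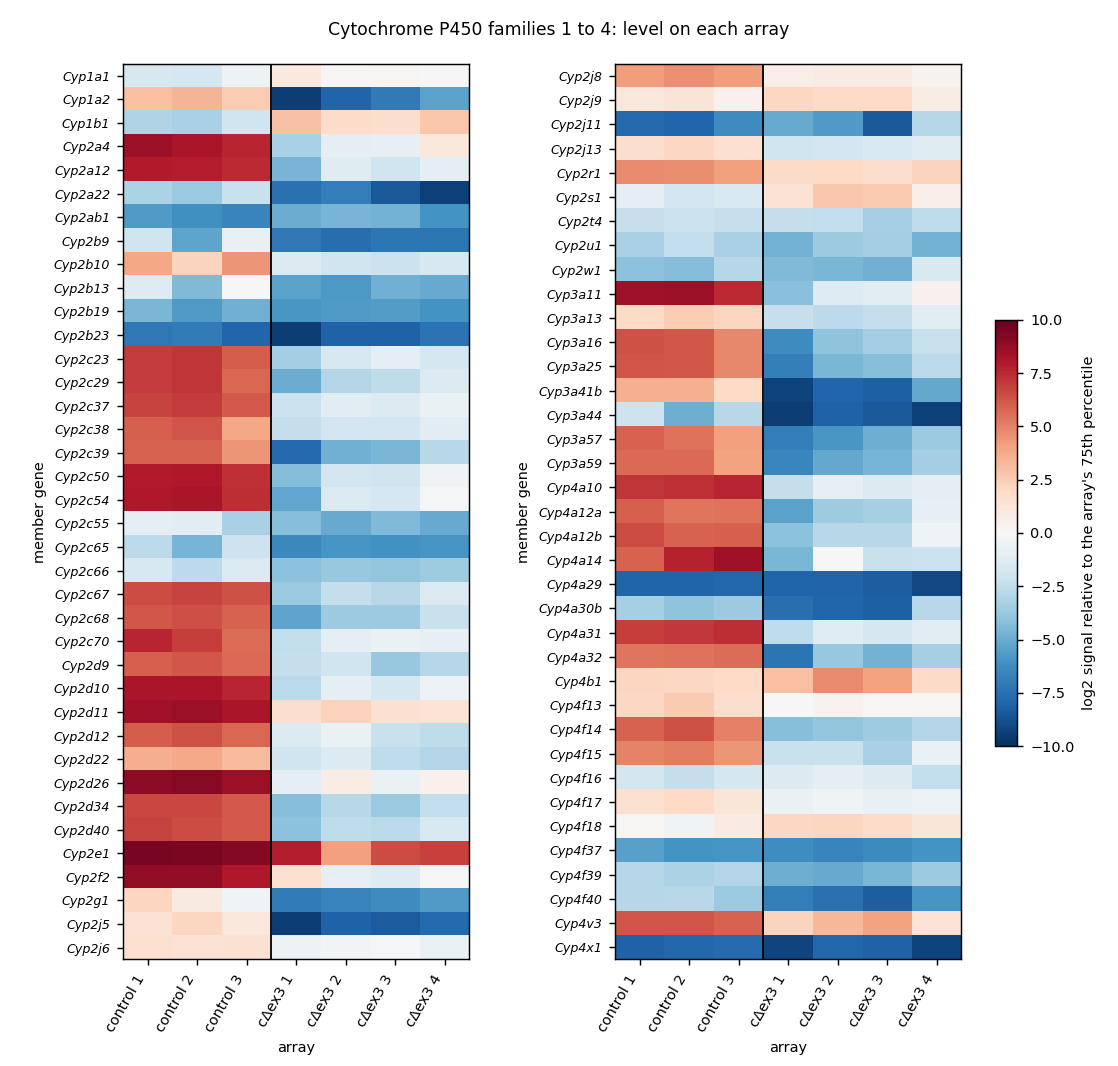
Level of each of the 75 members with a probe (rows, by subfamily) on the 3 control and 4 cΔex3 arrays (columns), as log2 signal relative to the array's 75th percentile. Red cells lie above and blue cells below that percentile. Most rows pass from red on the control arrays to blue on the cΔex3 arrays, while Cyp1b1, Cyp2s1 and Cyp1a1 pass from blue to red. Cyp4f18 lies near the percentile on the control arrays and above it on all 4 cΔex3 arrays. Cyp2e1 stays red on all 7, as do other members, among them Cyp2d11, Cyp2r1 and Cyp4v3.

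Detection did not follow the levels array by array. Between 68 and 70 of the 75 members were well above background on each control array. On cΔex3 arrays 1 to 4 the numbers were 63, 58, 60 and 68, though array 1 had the lowest median level of the members. Of all probes, 68.5% to 70.72% were above background on the control arrays. The shares on cΔex3 arrays 1 to 4 were 80.96%, 68.05%, 70.02% and 82.02%. On all 7 arrays 54 members were above background. Cyp2a22, Cyp2b9, Cyp2j5 and Cyp3a44 were above background on every control array and on no cΔex3 array, which 0.345% of named genes were. These 4 had only a bound on the cΔex3 arrays. Cyp2j5, an epoxygenase of arachidonic acid known from kidney and liver, was at least 296-fold lower. The bound was 15.1-fold for Cyp2b9, 12.0-fold for Cyp2a22 and 10.3-fold for Cyp3a44. The reverse held for 1 member, Cyp2ab1, against 2.36% of named genes. A further 3 members (Cyp2b23, Cyp4a29 and Cyp4x1) were above background on no array and were not tested. Of the 72 tested, 11 were above background on fewer than 3 cΔex3 arrays and 4 on fewer than 3 control arrays, Cyp4f37 being in both sets. Where such a member passed the filter only through the group in which it is high, the filter itself favoured a difference. It did not ensure a call, as Cyp2ab1, Cyp2j11 and Cyp4a30b passed the filter in this way and did not pass the threshold. The other 58 tested members, the 4 that rose and Cyp2e1 among them, were above background on at least 3 arrays of each group.

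The Cyp3a subfamily, whose enzymes oxidise many drugs and steroids, fell in all 8 of its tested members (limma; 0 higher at an unadjusted p under 0.05). Their median difference was −9.92. Cyp3a11, the main drug-oxidising member in mouse liver, read 8.48, 8.58 and 7.43 on the control arrays and −4.15, −1.29, −1.02 and 0.43 on the cΔex3 arrays. Every cΔex3 value lay below the lowest control value, and array 1 was the lowest and array 4 the highest of the 4. The difference was −9.67 ± 1.00 (SE; limma, adjusted p = 0.000318). Cyp3a16, known from fetal and young liver, read 6.33, 6.23 and 4.78 on the control arrays and −6.32, −3.99, −3.49 and −2.23 on the cΔex3 arrays, with the same order of arrays and a difference of −9.78 ± 0.94 (SE; limma, adjusted p = 0.000225). Cyp3a41b had a fitted difference of −10.63, from 3.55, 3.55 and 1.99 on the control arrays to −9.24, −7.92, −8.16 and −5.11 on the cΔex3 arrays. Array 4 held the highest value of the cΔex3 group and was the only one above background. Cyp3a41b passed the detection filter through the controls, and its difference was the largest of all members with the main scaling but −7.47 with normexp, where Cyp2a12 at −9.47 was the largest, and −6.96 in the deposited series values. Differences for Cyp3a57, Cyp3a25 and Cyp3a59 were −10.48, −10.36 and −10.05. Cyp3a44, dim on the control arrays too, has only the bound given above. Cyp3a13, which lies apart from the other members on chromosome 5, differed by −4.36. Another probe of Cyp3a13 fell by 9.38, so that the size of its fall differs between probes.

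All 13 tested Cyp2c genes fell, as did all 8 Cyp2d genes (limma; 0 higher at an unadjusted p under 0.05 in either subfamily). The Cyp2c enzymes make epoxides of arachidonic acid and oxidise drugs, and their median difference was −8.65. By the brightest probe of each gene Cyp2c39 had the largest difference, from 5.86, 5.90 and 4.45 on the control arrays to −7.75, −4.84, −4.60 and −2.74 on the cΔex3 arrays, with array 1 far below array 4 and no overlap between the groups. The value on cΔex3 array 1 was not above background. The difference of Cyp2c39 was −10.38 ± 1.1 (SE; limma, adjusted p = 0.000344). Dimmer probes of Cyp2c37 and Cyp2c54 differed by −10.98 and −10.85, and with normexp Cyp2c54 had the largest difference, −9.47. Cyp2c70, which makes the muricholic acids of mouse bile, read 7.65, 6.91 and 5.61 on the control arrays and −2.48, −0.92, −0.63 and −0.79 on the cΔex3 arrays and differed by −7.93 ± 0.62 (SE; limma, adjusted p = 9.49e-05). The Cyp2c genes lie on chromosome 19, and the falls differed with their order along it. The 3 members at one end, Cyp2c55, Cyp2c65 and Cyp2c66, fell by 2.95, 2.98 and 2.00, while the 10 measured members that follow differed by −10.38 to −7.22. Those 3 were already dim on the control arrays, with means of −1.74, −3.11 and −1.88.

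Along the Cyp2d cluster of chromosome 15, differences ran from −9.76 to −5.74 with a median of −8.85. Cyp2d34 fell from 6.66, 6.65 and 6.11 on the control arrays to −4.25, −2.73, −3.69 and −2.46 on the cΔex3 arrays, a difference of −9.76 ± 0.45 (SE; limma, adjusted p = 1.48e-05). Both groups were tight, with no overlap. A dimmer probe of the same gene fell by 6.16, and with normexp Cyp2d10 had the largest difference of the subfamily, −9.23. Cyp2d22, at the end of the cluster, had the smallest fall. Cyp2d9, a male-predominant steroid hydroxylase of adult liver, read 5.99, 6.19 and 5.63 on the control arrays and −2.37, −2.01, −3.81 and −2.82 on the cΔex3 arrays and differed by −8.69 ± 0.43 (SE; limma, adjusted p = 1.73e-05).

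**Figure D2:**
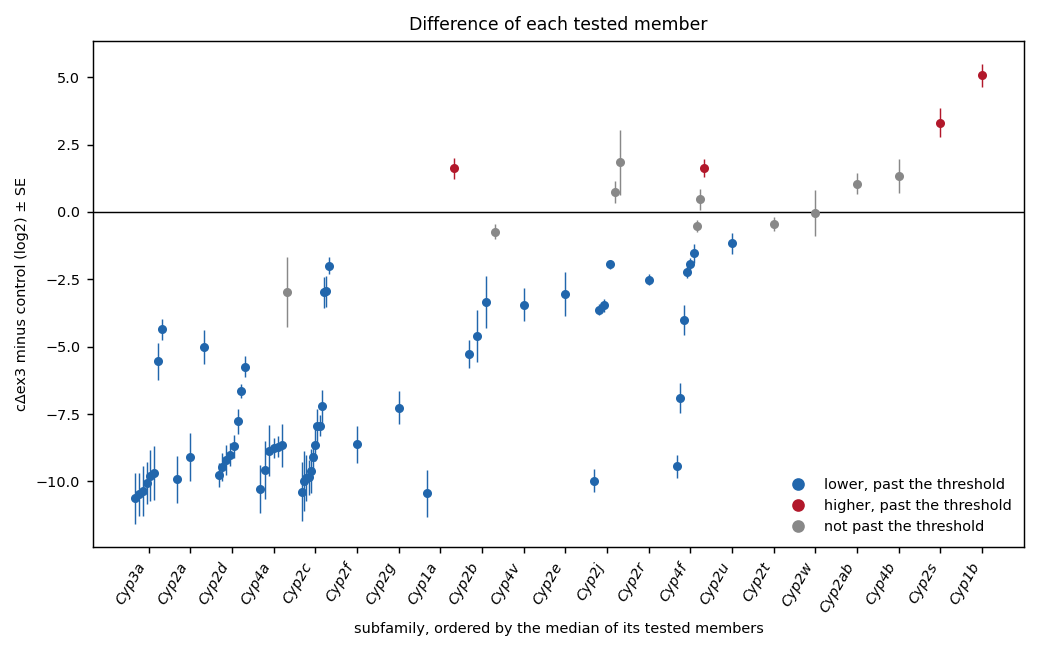
Difference of each of the 72 tested members (cΔex3 minus control, log2, bars are the SE from limma), with subfamilies ordered by their median difference. Blue points are lower and red points higher past the adjusted threshold of 0.05, and grey points did not pass. Most Cyp3a, Cyp2d, Cyp2c and Cyp4a points lie below −7, and the red points are Cyp1b1, Cyp2s1, Cyp4f18 and Cyp1a1. The 6 members above background on no array of a group are drawn at their fitted value, though only a bound is known for them.

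The chromosome 7 cluster held both falls and a rise. Cyp2a, Cyp2b, Cyp2f and Cyp2g members fell in 8 of 9 tested cases, and Cyp2s1, at the end of the same cluster, rose. Cyp2a12, which hydroxylates bile acids, read 7.92, 7.82 and 7.46 on the control arrays and −4.68, −1.19, −1.98 and −0.93 on the cΔex3 arrays, a difference of −9.93 ± 0.88 (SE; limma, adjusted p = 0.000161). The cΔex3 array 1 stood below the other arrays of its group. Cyp2f2, known for activating naphthalene in the club cells of the lung and present in liver, read 8.89, 8.84 and 7.98 on the control arrays and 1.68, −0.78, −1.26 and 0.14 on the cΔex3 arrays. Here array 1 was the highest of the cΔex3 arrays, unlike most members, and the difference was −8.63 ± 0.69 (SE; limma, adjusted p = 0.000111). Cyp2g1, an enzyme of the olfactory mucosa, read 2.13, 0.91 and −0.45 on the control arrays and −6.99, −6.64, −6.28 and −5.70 on the cΔex3 arrays, a fitted difference of −7.27, with only 2 of its cΔex3 values above background. Cyp2s1, an enzyme of epithelia outside the liver, read −0.93, −1.89 and −1.55 on the control arrays and 1.46, 2.67, 2.60 and 0.70 on the cΔex3 arrays. All 4 cΔex3 values exceeded the highest control value, and the rise was 3.32 ± 0.53 (SE; limma, adjusted p = 0.00213).

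Among the Cyp2b genes, Cyp2b10 is the classic target of the nuclear receptor CAR. It read 3.86, 2.20 and 4.43 on the control arrays and −1.41, −1.96, −2.17 and −1.59 on the cΔex3 arrays, with no overlap and a difference of −5.28 ± 0.52 (SE; limma, adjusted p = 0.000261). Cyp2b9 and Cyp2b13 are female-predominant genes of adult liver. Cyp2b9 has only the bound of 15.1-fold given above, and Cyp2b13 differed by −3.34 ± 0.96 (SE; limma, adjusted p = 0.0237). Cyp2b13 was not past the threshold without control array 1 (adjusted p = 0.081) or control array 3 (0.0616), or without cΔex3 array 1 (0.0546) or 2 (0.0577). Cyp2b19, a keratinocyte enzyme, differed by −0.74 ± 0.28 (SE; limma, adjusted p = 0.0608). Its groups overlapped.

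Cyp2e1 fell, yet stayed far above the 75th percentile on all 7 arrays. It oxidises ethanol and other small molecules and marks the hepatocytes around the central vein. Its values were 9.53, 9.41 and 9.19 on the control arrays and 7.88, 4.12, 6.55 and 6.81 on the cΔex3 arrays. The groups did not overlap, and within the cΔex3 group array 1 was the highest and array 2 the lowest, a range wider than the difference between the groups. Its difference was −3.04 ± 0.81 (SE; limma, adjusted p = 0.0175), and a second probe fell by 3.75. The call was lost without control array 1 (adjusted p = 0.0573) or 2 (0.0543). It was also lost with slide row as a block, where Cyp2e1 differed by −2.53 (limma, adjusted p = 0.0503). With quantile normalisation the difference was −1.91 (adjusted p = 0.126), and the deposited series values gave −1.75 (adjusted p = 0.157). The other pericentral members measured, Cyp1a2, Cyp2c29, Cyp2c37, Cyp2c50, Cyp2c54 and Cyp3a11, differed by −10.44 to −7.93.

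**Figure D3:**
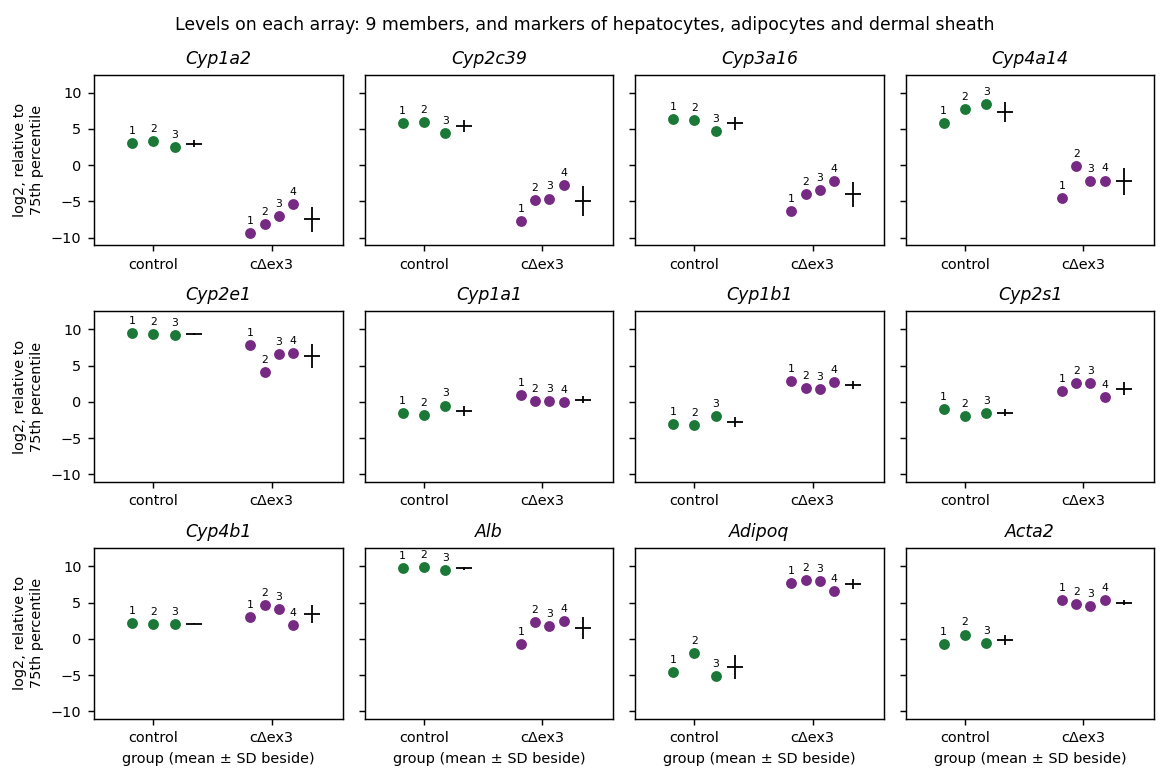
Level on each array (points, numbered by array) of 9 members and of Alb, Adipoq and Acta2, markers of hepatocytes, adipocytes and dermal sheath, as log2 signal relative to the array's 75th percentile. The cross beside each group is its mean ± SD (n = 3 control, n = 4 cΔex3). Cyp1a2, Cyp2c39 and Cyp3a16 fall with Alb and, like it, are lowest on cΔex3 array 1, whereas Cyp2e1 is highest there, and Cyp1a1, Cyp1b1 and Cyp2s1 lie higher on the cΔex3 arrays. On cΔex3 array 1, Cyp1a2 (−9.38) and Cyp2c39 (−7.75) lie under the lowest signal that is well above background there (−7.16).

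Family 1, the set induced through the aryl hydrocarbon receptor, was split. Cyp1a2, the constitutive hepatic member that oxidises caffeine, read 3.03, 3.38 and 2.54 on the control arrays and −9.38, −8.05, −7.06 and −5.34 on the cΔex3 arrays. It was above background on all 3 control arrays and 1 cΔex3 array, so it passed the detection filter through the controls. The fitted difference of −10.44 rests on dim cΔex3 signals and was −7.44 with normexp background correction and −6.95 in the deposited series values. Its neighbour on chromosome 9, Cyp1a1, which oxidises polycyclic aromatic hydrocarbons, read −1.57, −1.79 and −0.49 on the control arrays and 1.00, 0.09, 0.17 and 0.05 on the cΔex3 arrays. The 4 cΔex3 values lay above every control value, and the rise was 1.61 ± 0.39 (SE; limma, adjusted p = 0.0115). Cyp1b1, which oxidises oestradiol and retinoids and is known from mesenchymal and other tissues outside the liver, read −3.0, −3.21 and −1.98 on the control arrays and 2.93, 1.86, 1.78 and 2.80 on the cΔex3 arrays. Its rise of 5.07 ± 0.43 (SE; limma, adjusted p = 0.000133) was the largest of any member. Adipocyte, fibroblast and sheath markers were higher on the same arrays, as given above, and their part in the rises was not tested.

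The remaining family 2 genes were divided. Cyp2j genes, epoxygenases of arachidonic acid, fell in 4 of 6 tested cases. The largest fall was that of Cyp2j5, from 1.44, 2.18 and 1.14 on the control arrays to −9.40, −8.06, −8.30 and −7.78 on the cΔex3 arrays. Cyp2j8, Cyp2j13 and Cyp2j6 fell by 3.63, 3.46 and 1.95. The call for Cyp2j13 belongs to its brightest probe. Its other 2 tested probes read 0.22 and 2.08 higher and did not pass. Cyp2j9, known from brain, differed by 0.74 ± 0.40 (SE; limma, adjusted p = 0.157), with overlapping groups. Cyp2j11 was above background on no control array and on 3 cΔex3 arrays, and its groups overlapped. It did not pass the threshold, its sign turned with normexp (−0.17), and it passed without cΔex3 array 3 (adjusted p = 0.0346) and on arrays of single mice (0.0356). Cyp2r1, the hydroxylase that starts vitamin D activation in liver, read 4.69, 4.65 and 4.13 on the control arrays and 1.93, 1.97, 1.78 and 2.19 on the cΔex3 arrays, with a difference of −2.52 ± 0.21 (SE; limma, adjusted p = 0.000118). The brain and thymus enzyme Cyp2u1 read −3.25, −2.48 and −3.21 on the control arrays and −4.71, −3.64, −3.50 and −4.74 on the cΔex3 arrays and differed by −1.17 ± 0.40 (SE; limma, adjusted p = 0.0441). That call was lost in 11 of 21 other settings (adjusted p from 0.0118 to 0.148).

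Members of family 2 that did not pass included 3 that are alone in their subfamily. Cyp2w1, known from colon tumours, read −4.14, −4.31 and −2.89 on the control arrays and −4.38, −4.60, −4.77 and −1.52 on the cΔex3 arrays. Array 4 stood above the other cΔex3 arrays, the groups overlapped, and the difference was −0.04 ± 0.84 (SE; limma, adjusted p = 0.975). Cyp2t4 read −2.29, −2.14 and −2.34 on the control arrays and −2.42, −2.49, −3.34 and −2.53 on the cΔex3 arrays, a difference of −0.44 ± 0.26 (SE; limma, adjusted p = 0.192), with array 3 below the others. Cyp2ab1 read −5.64, −6.14 and −6.60 on the control arrays and −5.00, −4.67, −4.70 and −5.97 on the cΔex3 arrays, with overlapping groups. No control array was above background, so it has only a bound, at least 1.47-fold higher, and it did not pass the threshold (limma, adjusted p = 0.0556). With normexp background correction the sign turned, to −0.34, and Cyp2ab1 did not pass there either.

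The Cyp4a genes hydroxylate fatty acids at the end of the chain, and the receptor PPARα is known to induce several of them. Of 7 tested, 6 fell (limma; 0 higher at an unadjusted p under 0.05). Their median difference was −8.76. Cyp4a32 fell from 5.34, 5.45 and 5.60 on the control arrays to −7.34, −3.82, −4.76 and −3.35 on the cΔex3 arrays, a difference of −10.28 ± 0.90 (SE; limma, adjusted p = 0.000157). Cyp4a14, a sensitive PPARα target, read 5.87, 7.71 and 8.49 on the control arrays and −4.54, −0.07, −2.21 and −2.12 on the cΔex3 arrays. Its control arrays spread over 2.63, among the widest of the members, and still lay far above every cΔex3 array. The difference was −9.59 ± 1.08 (SE; limma, adjusted p = 0.000454). The order of these 2 genes turned with normexp, which gave −8.95 for Cyp4a32 and −9.10 for Cyp4a14, and in the deposited series values. Cyp4a12a and Cyp4a12b, male-predominant arachidonic acid hydroxylases of adult liver, differed by −8.86 and −8.66. The exception, Cyp4a30b, read −3.29, −3.99 and −3.62 on the control arrays and −7.57, −7.92, −8.17 and −2.75 on the cΔex3 arrays. It was above background on 1 cΔex3 array. The value on array 4 exceeded the controls, so the groups overlapped and the difference was −2.97 ± 1.31 (SE; limma, adjusted p = 0.0938). Beside the Cyp4a cluster on chromosome 4, Cyp4b1, an enzyme of lung that also activates plant furans, read 2.15, 2.08 and 2.02 on the control arrays and 3.01, 4.70, 4.05 and 1.92 on the cΔex3 arrays. Cyp4b1 was higher than every control on cΔex3 arrays 1 to 3 and lower than every control on array 4. Its difference was 1.34 ± 0.63 (SE; limma, adjusted p = 0.111), and without array 4 it was 1.84 (limma, adjusted p = 0.0107).

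The Cyp4f genes, which inactivate leukotrienes and hydroxylate long fatty acids, were divided, with 6 lower, 1 higher and 2 not past the threshold. Cyp4f14, a hepatic hydroxylase of leukotriene B4, read 5.91, 6.40 and 5.04 on the control arrays and −4.22, −3.94, −3.57 and −2.92 on the cΔex3 arrays and differed by −9.44 ± 0.42 (SE; limma, adjusted p = 1.25e-05). Its chromosome 17 neighbour Cyp4f15 fell by 6.91, whereas Cyp4f13 and Cyp4f17 in the same cluster fell by 1.93 and 2.22. Cyp4f39, whose product makes the very long hydroxy fatty acids of the skin barrier, read −2.89, −3.14 and −2.92 on the control arrays and −4.92, −5.01, −4.56 and −3.60 on the cΔex3 arrays, with no overlap and a difference of −1.54 ± 0.35 (SE; limma, adjusted p = 0.0096). On arrays of single mice its difference was −1.24 and did not pass (adjusted p = 0.141). Cyp4f16 and Cyp4f37 differed by 0.46 ± 0.38 (SE; limma, adjusted p = 0.341) and −0.51 ± 0.22 (SE; limma, adjusted p = 0.0923), with overlapping groups. Cyp4f18, the leukotriene B4 hydroxylase of neutrophils, lies on chromosome 8 and read 0.12, −0.37 and 0.80 on the control arrays and 2.07, 2.15, 1.82 and 1.22 on the cΔex3 arrays. Every cΔex3 value exceeded the controls, and the rise was 1.63 ± 0.35 (SE; limma, adjusted p = 0.00689). Cyp4v3, a fatty acid hydroxylase known from the eye, is the other chromosome 8 member and read 6.26, 6.29 and 5.93 on the control arrays and 2.20, 3.28, 4.03 and 1.34 on the cΔex3 arrays, a difference of −3.45 ± 0.61 (SE; limma, adjusted p = 0.00326). Markers of macrophages and Kupffer cells, the leukocytes among the marker lists, were split by gene. The 4 that fell, Clec4f, Vsig4, Marco and Timd4, differed by −10.88, −4.91, −3.71 and −1.53. Clec4f was above background on 2 cΔex3 arrays. Lyz2 alone rose, by 1.51, and the other 5 (Adgre1, Cd68, Csf1r, Cd14 and Mrc1) passed in neither direction. No list was of neutrophil markers, and the part of neutrophils in the rise of Cyp4f18 was not tested.

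Within the cΔex3 group many fallen members were lowest on array 1 and highest on array 4, and subfamilies differed in this. Of the 45 members that fell and were above background on all 4 cΔex3 arrays, 28 were lowest on array 1 and 26 were highest on array 4. Of 19 hepatocyte markers above background there, 17 were lowest on array 1 and 12 highest on array 4. The median level of the tested members was −4.14 on array 1, −2.28 on array 2, −2.63 on array 3 and −1.56 on array 4. Among the fallen members above background on all 4 cΔex3 arrays, 10 of 11 in the Cyp2c subfamily were lowest on array 1, as were 4 of 5 in Cyp3a and 5 of 5 in Cyp4a. In Cyp2d only 4 of 8 were lowest on array 1 and 3 of 8 highest on array 4. Adipocyte markers were lowest on array 4 for 12 of 12. Of the 4 members that rose, 3 were lowest on array 4.

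The control arrays also differed among themselves, by subfamily. Of 68 members above background on all 3 controls, 43 were lowest on array 3, the pool of 2 mice, as were 18 of 20 hepatocyte markers. Relative to the mean of the controls, the median of the Cyp3a members was −0.98 on array 3 and that of the Cyp2c members −0.52, against −0.30 for the hepatocyte markers. The median of the Cyp4a members was 0.14 there, and 4 of 7 were highest on that array. Cyp2b members followed another order, with a median of 0.59 on array 1, −2.52 on array 2 and 1.93 on array 3 relative to their control means, and all 3 were lowest on array 2. Cyp2b9 read −2.03, −5.29 and −0.75 on control arrays 1 to 3, and Cyp2b13 read −1.30, −4.42 and 0.04. Cyp3a44, Cyp2c65 and Cyp2c66 were lowest on array 2 as well. With 1 array per control sample these orders carry no test.

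**Figure D4:**
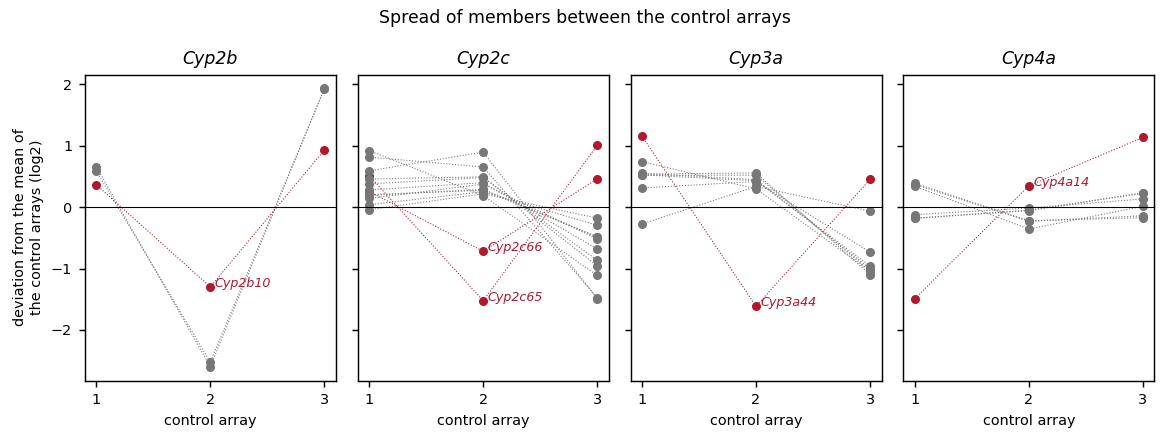
Deviation of each member from its mean over the 3 control arrays (log2), for the Cyp2b, Cyp2c, Cyp3a and Cyp4a members above background on all of them; dotted lines join the points of 1 gene and do not stand for an order. Cyp2b members, Cyp3a44, Cyp2c65 and Cyp2c66 dip on array 2, most other Cyp2c and Cyp3a members on array 3, and Cyp4a14 on array 1.

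Sets of members grouped by what is known of their control in liver were lower throughout, with 1 exception. The 4 genes induced through CAR or PXR, the 4 induced through PPARα, the 6 measured female-predominant and the 4 male-predominant genes of adult liver were all lower (limma), with medians of −4.82, −9.18, −7.32 and −8.67. The female-predominant median is −6.50 with Cyp2b9 and Cyp3a44 at their bounds. The calls of Cyp2b13 and Cyp2b9 in the female-predominant set and of Cyp2u1 in the male-predominant set were lost in some other settings. The exception was the AHR set of family 1, with 2 higher and 1 lower. Among 13 tested members described outside the liver, 3 were higher (Cyp1b1, Cyp2s1 and Cyp4f18), 6 lower and 4 not past the threshold, with a median of −0.74.

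Electron transfer and haem genes, partners of P450 enzymes of any family, had smaller median differences than the −6.78 of families 1 to 4. Of 9 electron transfer genes 8 were lower and none higher (limma; 0 higher at an unadjusted p under 0.05). Their median difference was −1.56. Fdx1 and Fdxr among them are mitochondrial, while families 1 to 4 take their electrons in the endoplasmic reticulum. Por, the reductase that supplies every microsomal P450, read 7.24, 7.46 and 6.94 on the control arrays and 6.02, 5.61, 5.93 and 5.10 on the cΔex3 arrays, a difference of −1.55 ± 0.27 (SE; limma, adjusted p = 0.00295). With quantile normalisation the difference was −0.70 and did not pass (adjusted p = 0.0686). Pgrmc1, a haem-binding partner, fell by 3.21, the mitochondrial carrier Fdx1 by 2.15, its reductase Fdxr by 1.79 and cytochrome b5 (Cyb5a) by 1.87. Quantile normalisation gave smaller differences that still passed, −0.73 for Cyb5a and −1.33 for Fdx1, and the deposited series values gave −0.59 and −1.23. In the haem pathway 10 of 13 genes were lower and none higher (0 at an unadjusted p under 0.05). Alas1, the first and limiting step of haem synthesis in liver, read 8.25, 8.54 and 8.50 on the control arrays and 6.18, 6.09, 6.12 and 5.32 on the cΔex3 arrays, a difference of −2.50 ± 0.25 (SE; limma, adjusted p = 0.000283). Cpox, a later step, fell by 4.20, the erythroid isoenzyme Alas2 by 2.43 and ferrochelatase (Fech) by 1.79. With quantile normalisation Alas1 differed by −1.54 and Fech by −1.08, both past the threshold.

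P450 genes of other families and other oxygenases were divided. Of 18 tested P450 genes outside families 1 to 4, 11 were lower and 2 higher. The bile acid enzymes Cyp7a1 and Cyp8b1 were above background on no cΔex3 array and at least 296-fold and 458-fold lower, and Cyp7b1 fell by 7.28. Ptgis, the prostacyclin synthase of vessels and mesenchyme, rose by 3.66 ± 0.28 (SE; limma, adjusted p = 9.32e-05). Among 10 other oxygenases and epoxide hydrolases, 7 were lower and 2 higher. Fmo5 and Aox3, enzymes of liver, fell by 4.87 and 6.71 and Fmo4 by 2.56, while Fmo2, a flavin monooxygenase of lung, rose by 2.43.

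Known transcription regulators of P450 genes, whether they raise or lower them, fell in 14 of 22 cases and rose in none (limma; 15 lower and 0 higher at an unadjusted p under 0.05). Their median difference was −3.13. Foxa3, Foxa2, the bile acid receptor Nr1h4 and the fatty acid receptor Ppara differed by −8.75, −9.26, −6.86 and −5.47, Foxa3 being above background on 1 cΔex3 array and Foxa2 on 3. The values of Hnf4a, the central hepatocyte factor, which was chosen after its values were seen, were 7.92, 7.91 and 7.52 on the control arrays and 2.44, 2.58, −2.24 and −0.53 on the cΔex3 arrays, a difference of −7.22 ± 1.19 (SE; limma, adjusted p = 0.00234). The lower pair of its cΔex3 values lay on arrays 3 and 4, another order than that of most members. Ahr, chosen in the same way, read 4.25, 3.78 and 4.01 on the control arrays and 1.62, 1.08, 1.39 and 1.70 on the cΔex3 arrays and differed by −2.56 ± 0.22 (SE; limma, adjusted p = 0.000135), while its target Cyp1a1 read higher on the same arrays.

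Short motifs were searched on both strands in the 250 bases before the RefSeq start of each gene (GRCm38.p6). Each motif was counted on its own; the HNF4 and TCF/LEF cores can share the letters CAAAG. Of the 75 members, 61 had 68 promoters in the table, and 52 of these promoters belong to members that fell. The core CAAAGTCC, bound by HNF4, was in 17.3% of those 52 and in 1.20% of 32851 promoters of all genes. TGTTTAC, the core of the FOXA factors, was in 15.4% against 3.17%, TTGCNNAA of the C/EBP factors in 25.0% against 9.56%, and GTTAAT of HNF1 in 11.5% against 6.43%. CTTTGAT, the TCF/LEF core through which β-catenin acts, was in 5.77% against 3.21%. GCGTG, the core of the AHR response element, was in 13.5% against 28.2%. Over all 68 member promoters, fallen or not, the shares in the same order were 14.7%, 13.2%, 23.5%, 10.3%, 4.41% and 19.1%. The 52 are among these 68, so the shares do not set the fallen members apart from the family. Promoters of neighbouring members share ancestry and sequence, so these shares are not counts of independent events and carry no test.
The HNF4 core was found in 10 members, 9 that fell and Cyp4f18, which rose, between 55 and 200 bases before the start. They are shown because they hold it, with the core in capitals and up to 16 bases on each side in the direction of the gene:
Cyp2a4 (chr7:26307121-26307160, plus strand): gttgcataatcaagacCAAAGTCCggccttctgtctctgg
Cyp2c65 (chr19:39060874-39060913, plus strand): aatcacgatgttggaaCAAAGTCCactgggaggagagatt
Cyp2c66 (chr19:39113778-39113817, plus strand): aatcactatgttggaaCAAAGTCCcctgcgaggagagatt
Cyp2c67 (chr19:39649144-39649183, minus strand): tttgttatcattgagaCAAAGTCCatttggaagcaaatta
Cyp2c68 (chr19:39741155-39741194, minus strand): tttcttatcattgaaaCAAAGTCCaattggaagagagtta
Cyp2c70 (chr19:40187327-40187366, minus strand): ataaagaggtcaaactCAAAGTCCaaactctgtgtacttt
Cyp3a11 (chr5:145879940-145879979, minus strand): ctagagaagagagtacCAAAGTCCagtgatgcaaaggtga
Cyp3a16 (chr5:145469799-145469838, minus strand): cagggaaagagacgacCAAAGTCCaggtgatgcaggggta
Cyp3a41b (chr5:145584802-145584841, minus strand): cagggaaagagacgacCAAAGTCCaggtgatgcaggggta
Cyp4f18 (chr8:72009803-72009842, minus strand): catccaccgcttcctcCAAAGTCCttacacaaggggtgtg
The 2 windows of Cyp3a16 and Cyp3a41b are the same sequence over these bases, and those of Cyp2c65 and Cyp2c66 differ at 3 of 40 bases. Cyp2c67 and Cyp2c68 differ at 6 of them. The AHR core was also in promoters of the fallen members Cyp2b10, Cyp2c68, Cyp2j13, Cyp4f14, Cyp4f39 and Cyp4v3. Some members that did not pass the threshold held it too, and none of these windows is shown. Cyp1b1 and Cyp1a1 each hold 1 AHR core, shown in capitals in the direction of the gene, where CACGC is the core read on the other strand:
Cyp1a1 (chr9:57697543-57697579, plus strand): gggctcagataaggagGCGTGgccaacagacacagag
Cyp1b1 (chr17:79715117-79715153, minus strand): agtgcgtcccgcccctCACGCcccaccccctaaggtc
Cyp1a2, Cyp2e1 and Cyp2s1 hold none of the 6 motifs in this window, which says no more than that these letters are not there. A match is a description of letters and not a measured site.

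Of 15 members with several tested probes, none had probes past the threshold in opposite directions, but in 10 of the 15 the probes differed by over 1 on the log2 scale, so that the size of a fall depends on the probe. With the mean or the dimmest of a gene's probes, Cyp2j13 was the only member that lost its call. Many Cyp2c, Cyp2d, Cyp3a and Cyp4a genes are close copies of each other, and whether a probe also binds a relative's transcript was not tested. The arrays were 1 scan of 1 slide. In the 2 slide rows, which held 2 control and 1 cΔex3 array and 1 control and 3 cΔex3 arrays, the median difference of the members was −6.95 and −6.36, and 63 of 72 members read lower in each. These rows are those of the file headers. The positions in the names of the files differ from them on 4 of 7 arrays and place each group in a row of its own, in which case row and group cannot be told apart.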

How the data were processed

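Per the file headers, the arrays were scanned as 1 slide and read with Agilent Feature Extraction 10.7.1.1. The deposited processed signal is an intensity on a linear scale that the authors' software background-subtracted; it is not normalised between arrays. For 1 alternative, normexp, the deposited raw median intensity and its local background were taken; the mean signal planned for it was not used here. Flags that the authors deposited per spot (other values, 0 or 1) gave detection, and 0 spots were saturated. The authors also deposited a log2 table, whose making is not stated; its columns had medians between 7.52 and 7.53 and correlated at 0.9999 or above with normexp and quantile values of the same arrays, which gives the scale, while the background offset stays unknown.

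Signals were taken as log2 minus each array's 75th percentile, without control spots and spots marked as outliers. Of 55681 probes, 28026 were named through an unversioned RefSeq accession (GRCm38.p6 table) and 27655 were not; the arrays' own annotation is of another build, so no gene coordinates are given other than those of the RefSeq promoters. Testing took probes detected well above background on 3 or more of the 7 arrays, and the probe with the highest mean stood for its gene, giving 18031 genes.

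Groups came from the sample titles, with 3 control and 4 cΔex3 arrays; the labels call them biological replicates. The 2 groups were fitted with limma 3.58.1 in R 4.3.3 (lmFit, then eBayes; two-sided tests without a covariate), Benjamini-Hochberg adjusted over all genes tested, with a threshold of 0.05. The fit alone, without the scaling, filter or choice of probes, was also run on simulated data in which few genes changed. Each p-value of a gene is limma's. A gene on no array of a group above background has a bound: the brighter group's mean against the dimmer group's mean of, per array, whichever is higher of the probe's own signal and the lowest signal that is well above background. The number of arrays limits the precision. Deviations of same-numbered arrays correlated at −0.009, −0.001 and 0.018 across genes, and those of differently numbered arrays between −0.091 and 0.089. Whether the numbers pair samples cannot be told from these values, and the main fit took no pairing. Values on every array are given for the member with the largest difference in each subfamily, for members that rose and for a set of well known members. They are also given for a few others chosen after their values were seen. The 4 partner genes of smallest p in each list are given by their difference or bound. Of the partner genes, Alas1 and Por are also given with their values on every array. Members, gene lists and motifs were chosen with earlier results of these data known. The alternatives were background correction, 4 other scalings or tables, filters, probe rules, array weights, variance prior, slide row, replicate block, single-mouse arrays and leaving out each array.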

Additional observations from a re-analysis of the deposited data

Results flagged for a closer look

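In 5 of 52 results tested for it, 1 cΔex3 array stood far from the other 3, which chance gives in about 1 of 20. The level of Cyp1a1 was 1.00 on array 1, against 0.05 as the lowest of the group. Cyp2w1 read −1.52 on array 4, with the lowest array at −4.77. Cyp2t4 read −3.34 on array 3, below the other 3, whose highest value was −2.42. Among the partner genes, Alas1 read 5.32 on array 4, with the highest array at 6.18, and the aldehyde oxidase gene Aox3 read −2.25 on array 1, with the lowest at −3.40.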

How the results depend on the processing

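Over 21 other settings the number of members that were lower ran from 45, where a probe had to be above background on all 7 arrays and 54 members could be tested, to 61 with normexp, and the number that were higher from 4 to 8; Cyp1a1, Cyp1b1, Cyp2s1 and Cyp4f18 were higher in each. With array quality weights 7 members were higher, and 7 with the replicate block, which moved no count of lower members by over 1.5 times. Leaving out each array in turn gave 4 to 8 higher and 55 to 59 lower members, with a median difference from −6.95 to −6.55. The median difference was −5.87 with normexp, −5.49 with the deposited series values and −5.74 without a filter on dim probes. Scaling moved the median of all genes from −0.08 to −0.22 with normexp, 0.13 with quantile normalisation, 0.09 with the percentile of probes detected on all arrays and 0.11 in the deposited values. Of 51 named genes, 43 kept their call in every setting. Cyp2ab1 turned to −0.34 with normexp, and Cyp2w1, near 0, to 0.00024 with quantile normalisation, 0.13 with the percentile of detected probes, 0.047 in the deposited values, 1.27 on arrays of 1 mouse and 0.15 to 0.41 without control array 3 or cΔex3 array 1, 2 or 3, while leaving out cΔex3 array 4 gave −0.80; the cause was not tested. Of the 58 members that were lower, 53 were lower on arrays of 1 mouse, where Cyp2b9, Cyp2b13, Cyp2c65, Cyp2c66 and Cyp4f39 lost the threshold. Signal over background limits the members dim on the cΔex3 arrays, whose differences rest on signals near background there, and 3 against 4 arrays limit every error.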
